A study of Rattus norvegicus with 26 samples.

Results

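The transcriptomes of injured rat spinal cord 4 weeks after transplantation (wpt) were compared between rats given mesenchymal stem cells from human umbilical cord (hUC-MSCs), the +MSC-4w group, and rats given phosphate-buffered saline, the +PBS-4w group. The comparison was made over 4 libraries against 4, which are 8 of the 26 libraries of the series, and was chosen by treatment and week alone. All rats were wild type adult female Sprague-Dawley animals, labelled as post natal day 70. The cord was compressed at T10 for 1 min by an aneurysm clip closing with 60 g. On day 7 after injury, hUC-MSCs or saline were injected into the intrathecal space at the lumbar level, and the rats received cyclosporin A daily to suppress rejection of the human cells. The tissue was a 5 mm piece of cord with the lesion at its centre. The other 18 libraries came from uninjured or sham-operated cord (Intact, 4 libraries), injured cord at the time of transplantation (sub-SCI, 3), and +PBS and +MSC cord at 1 and 2 wpt (3 and 2 +PBS libraries, 3 and 3 +MSC libraries). The labels do not say whether a library holds 1 rat or several, and p-values measure the spread between these libraries. The injected cells are human, and reads that mapped to the human genome had been removed before the counting, so the counts are of reads assigned to the rat.

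Compression of the cord kills neurons and oligodendrocytes at the centre of the lesion and cuts the axons that pass through it. Macrophages, microglia, reactive astrocytes and fibroblasts then fill and surround the lesion. Neurons of the cord are held in balance by excitatory glutamate receptors and by inhibitory GABA and glycine receptors, whose chloride current depends on the chloride transporters of the cell. In a piece of tissue, fewer cells of a type and less RNA per cell of that type cannot be told apart.

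The expression level is given as CPM, the count of a gene relative to the total of its library, after TMM scaling. Total counts lay between 23353052 and 43468509 in +MSC-4w and between 21327390 and 28291215 in +PBS-4w, at which a level well under 1 CPM rests on few reads. The label of spinal cord was met in all 8 libraries. Summed over their lists, the myelin genes of oligodendrocytes stood at 19510.3 to 29663 CPM in +MSC-4w and 18092 to 29732 CPM in +PBS-4w, the pan-neuronal genes at 8256 to 10082 and 2446 to 8784 CPM, and the Hox genes of the trunk at 152 to 182 and 121 to 249 CPM.

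Replicate 1 of +PBS-4w lay apart from the rest of its group. Its mean correlation with the other +PBS-4w libraries, in log2 CPM across genes, was 0.936, against 0.961 to 0.966 for the other 3. With the +MSC-4w libraries its mean correlation was 0.951, also the lowest of its group, against 0.955 to 0.966 for the other 3. Replicate 1 also differed from the other +PBS-4w libraries with gene length. Among the 12282 genes with a mean of at least 5 CPM, its median difference from the other +PBS-4w libraries was 0.47 on the log2 scale in the shortest of 4 equal classes of gene length (up to 1647 bases) and -0.41 in the longest (from 3832 bases). In the other 25 libraries of the series the same medians lay between -0.20 and 0.17 and between -0.10 and 0.18. Of the 110 genes given with values below, 34 gained and 0 lost an adjusted p under 0.05 when it was left out, and counts without it are given for most lists as well. Skeletal muscle genes summed to 273 CPM in +PBS-4w replicate 2 and to 15.7 to 59.6 CPM in the other 7 libraries.

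**Figure D1:**
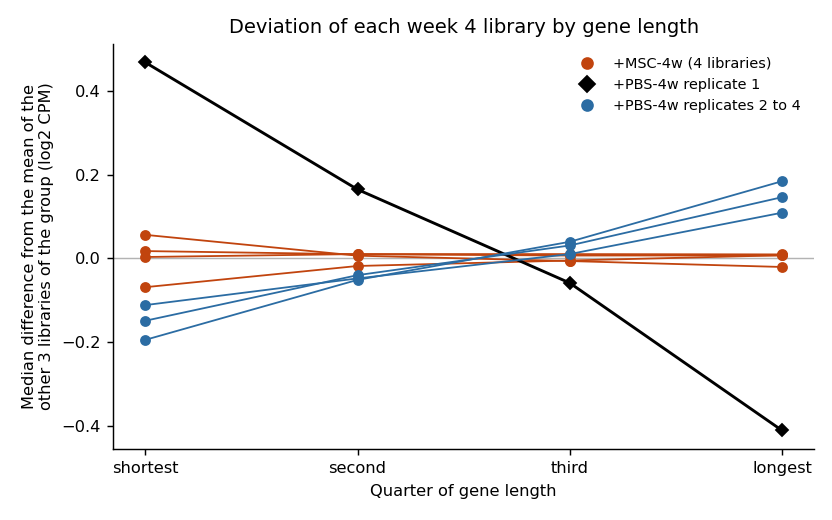
Median difference in log2 CPM of each week 4 library from the mean of the other 3 libraries of its group (vertical axis), in 4 equal classes of gene length (horizontal axis), with +MSC-4w in orange, +PBS-4w in blue and +PBS-4w replicate 1 as black diamonds. Replicate 1 of +PBS-4w fell from 0.47 in the shortest class to -0.41 in the longest, while the 4 +MSC-4w libraries stayed between -0.07 and 0.06.

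At 4 wpt most genes of the neuronal lists given below had higher levels in +MSC-4w than in +PBS-4w. Genes were called DEGs (differentially expressed) where the log2 fold change passed 1 in size and the Benjamini-Hochberg adjusted p of edgeR's quasi-likelihood test fell under 0.01, with 17990 genes tested. By this rule 89 genes were higher in +MSC-4w (0.495% of the genes tested) and 0 were lower (0%), while DESeq2 called 295 higher and 13 lower. At an adjusted p under 0.05 and with no limit on the fold, 552 genes were higher (3.07%) and 167 lower (0.928%), and at an unadjusted p under 0.05 the numbers were 2020 (11.2%) and 2028 (11.3%). The higher genes of the 552 moved further, with a median log2 fold change of 1.06, while the 167 lower genes had a median of -0.57 and only 15 of them passed -1. Of the 89 DEGs, 85 were protein coding, and the log2 fold changes of the 89 ran from 1.00 to 4.43 with a median of 1.42. Only 13 of the 89 belonged to any of the fixed gene lists, and 11 to the neuronal lists. The lists were chosen with earlier results of these data known. In the verbs used below, a gene rose or fell where its adjusted p was under 0.05 in this test, and values alone are given for the others.

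All 89 DEGs were higher in each +MSC-4w library than in any +PBS-4w library, replicate 1 included (6.08% of the genes tested were separated in this way), which a choice by a test on the same libraries favours. The DEGs stood at 5.14% to 41.2% of the Intact mean in +PBS-4w, with a median of 20.5%, and at 42.6% to 397% in +MSC-4w, with a median of 55.0%. The 397% was that of the small RNA gene RF00108, at means of 0.130 CPM in Intact and 0.516 CPM in +MSC-4w. Next highest was Scn9a, at 124%. Against Intact, 2395 genes were higher DEGs (13.3%) and 1923 lower (10.7%) in +PBS-4w, and 1305 (7.25%) and 275 (1.53%) in +MSC-4w, the Intact libraries being shared. In 76 of the 89 the highest +MSC-4w value was that of replicate 1, and in 55 the lowest was that of replicate 3. The number of DEGs rested on single libraries and on the test. Leaving out 1 of the 8 libraries at a time gave 3 to 484 higher DEGs, with 3 in the fit without +MSC-4w replicate 1 and in that without +PBS-4w replicate 2, while 85 to 89 of the 89 kept an adjusted p under 0.05. The fit to the 8 libraries of week 4 alone gave 0 in edgeR (1383 higher and 1137 lower genes at an unadjusted p under 0.05) and 232 in DESeq2. Of the 89 genes, all 87 that were tested there stayed higher in +MSC-4w. With median-of-ratios size factors in place of TMM, 88 were DEGs and 559 rose (3.11%).

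The 15 DEGs with the smallest adjusted p were led by L1cam, a cell adhesion molecule of growing and bundled axons. L1cam stood at 157, 140.4, 126 and 144 CPM in +MSC-4w replicates 1 to 4 and at 54.1, 64.8, 68.1 and 69.7 CPM in +PBS-4w replicates 1 to 4. The lowest +MSC-4w library was thus well above the highest +PBS-4w library, and the log2 fold change was 1.15 (SE 0.142, edgeR adjusted p = 0.001). Intact cord held 228 ± 10.7 CPM (SD, n = 4), so that +MSC-4w lay between +PBS-4w and Intact. Mest, an imprinted gene for an enzyme of the hydrolase fold, stood at 11.5, 11.4, 15.4 and 13.5 CPM in +MSC-4w and 5.66, 3.85, 4.34 and 6.33 CPM in +PBS-4w, against 23 ± 3.66 CPM (SD, n = 4) in Intact (log2 fold change 1.36, SE 0.179, edgeR adjusted p = 0.001). Rasgrp1, an exchange factor that activates Ras in answer to diacylglycerol and calcium, stood at 12.1, 9.99, 12.2 and 15.4 CPM in +MSC-4w and 4.77, 4.34, 4.12 and 4.86 CPM in +PBS-4w (log2 fold change 1.46, SE 0.192, edgeR adjusted p = 0.001). The +PBS-4w libraries of Rasgrp1 lay within 1 CPM of each other, and no library of either gene overlapped with the other group.

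The sequence around the start of transcription is shown for the 3 DEGs with the smallest adjusted p that a RefSeq promoter table (GRCr8) lists once by symbol, as examples of promoters whose genes rose together. Each holds 250 bases before the start and 50 after it, 5′ to 3′ on the strand of the gene, with matches to the motifs below in capitals. The promoter of Mest lies at chr4:60321564-60321863 on the plus strand, that of Rasgrp1 at chr3:124684030-124684329 on the minus strand and that of Add2, whose values follow, at chr4:120054628-120054927 on the plus strand.
Mest: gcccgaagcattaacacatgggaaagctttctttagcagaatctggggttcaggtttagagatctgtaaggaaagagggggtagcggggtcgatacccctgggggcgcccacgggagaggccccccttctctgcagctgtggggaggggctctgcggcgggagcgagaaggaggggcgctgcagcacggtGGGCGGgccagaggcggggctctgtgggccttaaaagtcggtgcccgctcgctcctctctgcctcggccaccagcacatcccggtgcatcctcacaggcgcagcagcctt
Rasgrp1: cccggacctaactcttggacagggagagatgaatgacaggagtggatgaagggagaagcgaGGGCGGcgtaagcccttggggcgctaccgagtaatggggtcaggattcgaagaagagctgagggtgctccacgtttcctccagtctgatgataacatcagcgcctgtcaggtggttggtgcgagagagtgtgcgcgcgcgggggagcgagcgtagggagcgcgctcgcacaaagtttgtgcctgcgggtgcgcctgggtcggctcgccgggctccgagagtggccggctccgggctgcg
Add2: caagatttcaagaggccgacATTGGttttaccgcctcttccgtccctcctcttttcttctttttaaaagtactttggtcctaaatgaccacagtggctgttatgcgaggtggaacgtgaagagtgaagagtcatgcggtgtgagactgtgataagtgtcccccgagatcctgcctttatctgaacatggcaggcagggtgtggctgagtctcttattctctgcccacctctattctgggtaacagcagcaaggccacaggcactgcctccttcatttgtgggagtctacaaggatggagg
The capitals mark a GC box (GGGCGG) in Mest and Rasgrp1 and a CCAAT box (CCAAT) in Add2, where it is read on the other strand. Of the DEGs 65 had such a promoter, and of all genes tested 11130. A GC box on either strand was found in 58.5% of the 65 promoters and 58.9% of the 11130, and a CCAAT box in 23.1% and 37.3%. The TATA box (TATAAA) was found in 7.69% and 7.73%, the AP-1 site (TGACTCA) in 3.08% and 3.65%, the shared core of cyclic AMP response elements (TGACG) in 20% and 29.7%, and the left part of the RE1 element (CAGCACC) in 6.15% and 7.92%. These are matches of letters and not sites of binding.

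Several of the next DEGs shape the cytoskeleton and the surface of axons. Adam23, a neuronal membrane protein that binds LGI1, stood at 153, 126, 115 and 110.4 CPM in +MSC-4w and 31.1, 48.5, 48.5 and 64.8 CPM in +PBS-4w (log2 fold change 1.39, SE 0.197, edgeR adjusted p = 0.00243). Add2, an adducin that joins actin to spectrin, stood at 42.8, 42.2, 33.5 and 40.1 CPM and 9.46, 9.77, 13.6 and 14.9 CPM (log2 fold change 1.73, SE 0.255, edgeR adjusted p = 0.00312). In both genes the +PBS-4w replicate 1 was the lowest library of all 8. Map1b, a microtubule-associated protein of growing axons, stood at 2203, 1990.3, 1849 and 1781 CPM in +MSC-4w and 683, 702, 816 and 922 CPM in +PBS-4w (log2 fold change 1.32, edgeR adjusted p = 0.00312). Cit, the gene of citron kinase, which acts in cell division, stood at 71.5 to 97.7 CPM in +MSC-4w and 22 to 47.3 CPM in +PBS-4w (log2 fold change 1.18, edgeR adjusted p = 0.00312). It was lowest in +PBS-4w replicate 1, and without that library its log2 fold change was 0.97 (adjusted p = 0.00189), just under the limit of a DEG. Cit was 1 of 7 DEGs lost in this way, with Abca5, Sgtb, Neto1, Neto2, Camk1d and Lonrf2.

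Others serve receptors and signalling. Chrna7, the alpha 7 subunit of nicotinic acetylcholine receptors, stood at 15.2, 12.9, 11.5 and 11.6 CPM in +MSC-4w and 3.58, 3.39, 4.79 and 4.91 CPM in +PBS-4w (log2 fold change 1.62, SE 0.254, edgeR adjusted p = 0.00312). Cacng2, or stargazin, which carries AMPA receptors to the synapse, stood at 49.9, 28.3, 27.8 and 34.7 CPM and 9.65, 8.29, 10.2 and 9.59 CPM (log2 fold change 1.9, SE 0.298, edgeR adjusted p = 0.00312). Its +PBS-4w libraries lay close together, while +MSC-4w replicate 1 stood well above the other 3. Aak1, a kinase of clathrin-mediated uptake, ran over 134 to 200.2 CPM and 58.6 to 84.4 CPM in the same order of groups (log2 fold change 1.16, edgeR adjusted p = 0.00312). Of the enzymes, Rimkla, which makes N-acetylaspartylglutamate, ran over 25.7 to 32.5 CPM and 10.9 to 14.3 CPM (log2 fold change 1.16), and Pcyt1b, of phosphatidylcholine synthesis, over 19.4 to 27.1 CPM and 8.57 to 10.7 CPM (log2 fold change 1.27). Both had an edgeR adjusted p = 0.00312. Abcc2, an exporter of organic anions, was low throughout, at 2.08 to 3.02 CPM against 0.776 to 0.932 CPM, with a log2 fold change of 1.61 (edgeR adjusted p = 0.00312). No library of these 6 genes overlapped with the other group.

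**Figure D2:**
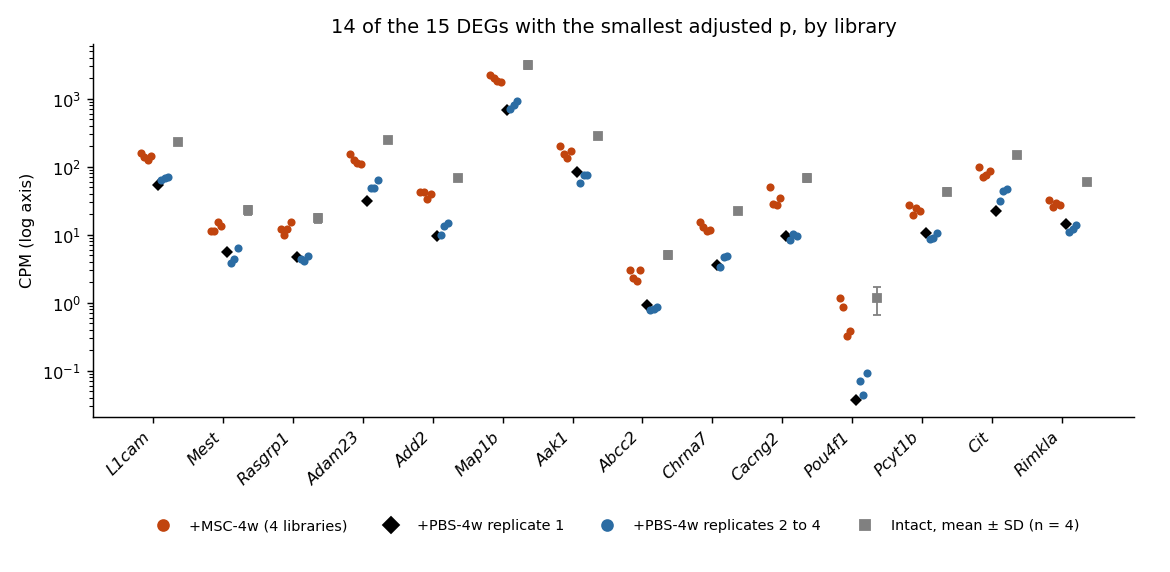
CPM on a log axis of 14 of the 15 DEGs with the smallest adjusted p, with 1 orange point for each +MSC-4w library, blue points for +PBS-4w replicates 2 to 4, a black diamond for +PBS-4w replicate 1, and grey squares with bars for the mean ± SD of the 4 Intact libraries. In each gene the 4 +MSC-4w libraries lie above the 4 +PBS-4w libraries, and in all but Pou4f1 every +MSC-4w point lies below the Intact mean.

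Pou4f1, a transcription factor of sensory neurons, is the 1 gene of the 15 whose counts were near the limit of detection. It stood at 1.19, 0.874, 0.322 and 0.387 CPM in +MSC-4w and 0.0373, 0.0706, 0.0447 and 0.0918 CPM in +PBS-4w (log2 fold change 3.43, SE 0.543, edgeR adjusted p = 0.00312). It also belongs to the list of dorsal root ganglion genes, which summed to 18.1 to 53.3 CPM in +MSC-4w and 18.3 to 24.6 CPM in +PBS-4w, with the highest sum in +MSC-4w replicate 2. Of that list 8 genes were tested, 7 had a log2 fold change above 0 and 1 rose, against 6 above 0 and 2 that rose without +PBS-4w replicate 1. Over all genes tested 45.5% were above 0 and 3.07% rose, and without that library 44.6% and 9.63%. The part of ganglion tissue in the result was not tested. The DEGs with the largest log2 fold changes were low as well. Ptchd4, related to Patched, stood at 1.47, 0.503, 0.429 and 1.29 CPM and 0.0745, 0.141, 0.134 and 0 CPM (log2 fold change 3.28), and Htr4, a serotonin receptor, at 1.51, 1.05, 1 and 1.12 CPM and 0.0745, 0.141, 0.403 and 0.275 CPM (log2 fold change 2.40). Sv2c, a protein of synaptic vesicles, rested on many reads, at 108, 74.9, 65.7 and 66.5 CPM and 4.81, 18.2, 27.5 and 25.2 CPM (log2 fold change 2.06, SE 0.389, edgeR adjusted p = 0.0069). The largest log2 fold change, 4.43, was that of a small RNA gene of 93 bases annotated as RF00108, a name shared by several genes that stood at or under 2 CPM in all 8 libraries, and it is not read further.

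The genes that carry nerve impulses and their transmission were higher as groups. Over 10 lists of neuronal genes, 162 genes were tested, of which 157 had a log2 fold change above 0 (96.9%, against 45.5% of all genes tested). Their median was 0.93, against -0.04 over all genes. Of the 162 genes, 44 rose, 0 fell and 11 were DEGs (6.79%), where 3.07% of all genes rose and 0.495% were higher DEGs. Without +PBS-4w replicate 1 the DEGs among them numbered 59, where 2.69% of all genes were higher DEGs and 9.63% rose. The same shares over all genes belong beside the counts of each list below.

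Among the voltage-gated sodium channel genes 12 of 13 had a log2 fold change above 0 (median 1.06), 5 rose and 2 were DEGs. Scn8a, the Nav1.6 channel of nodes and axon initial segments, stood at 186, 112, 107 and 122 CPM in +MSC-4w and 18, 37.6, 52.9 and 46.3 CPM in +PBS-4w (log2 fold change 1.77, SE 0.312, edgeR adjusted p = 0.00498). Scn9a, the Nav1.7 channel of sensory neurons, stood at 16.4, 43.9, 19.5 and 14.2 CPM and 9.13, 7.44, 6.4 and 8.35 CPM (log2 fold change 1.59, edgeR adjusted p = 0.00771). Its highest library was +MSC-4w replicate 2, the library with the highest sum of ganglion genes. Scn1a, the Nav1.1 channel, rose by a log2 fold change of 1.67 (edgeR adjusted p = 0.0179) and Scn3a by 1.15 (adjusted p = 0.0102), each without overlap between the groups. With +PBS-4w replicate 1 left out, 8 of the list rose and 3 were DEGs, against 9.63% and 2.69% of all genes.

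All 21 voltage-gated potassium channel genes tested had a log2 fold change above 0 (median 0.94), and 8 of them rose. Kcnab2, a cytoplasmic beta subunit, stood at 167, 102, 92.3 and 114 CPM in +MSC-4w and 77.7, 31, 43.3 and 45.6 CPM in +PBS-4w (log2 fold change 1.27, edgeR adjusted p = 0.00919). It was 1 of the 2 DEGs of the list, and its groups did not overlap. Kcnq5, a subunit of the M current that restrains firing, rose by 0.92 (edgeR adjusted p = 0.00312) and Kcnh1 by 1.08 (adjusted p = 0.0131). Once replicate 1 of +PBS-4w was left out, the median was 1.17. In that fit 16 of the 21 rose and 11 were DEGs, against 9.63% and 2.69% of all genes.

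Of the voltage-gated calcium channel genes 21 of 22 had a log2 fold change above 0 (median 0.75) and 9 rose, among them the DEGs Cacng2, above, and Cacna2d2. Cacna2d2, an alpha2delta subunit that brings channels to the membrane, stood at 72.4, 46.3, 41.4 and 60.5 CPM in +MSC-4w and 25.8, 17.9, 26.5 and 22.3 CPM in +PBS-4w (log2 fold change 1.25, edgeR adjusted p = 0.00669). Its relative Cacna2d1 rose by 1.48 (edgeR adjusted p = 0.0116), and Cacna1a, the pore of the P/Q channel of nerve terminals, by 0.71 (adjusted p = 0.0102). In the fit that left out +PBS-4w replicate 1, 19 of the list had a log2 fold change above 0. Of these genes 13 rose and 6 were DEGs, against 9.63% and 2.69% of all genes.

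All 26 presynaptic vesicle genes tested had a log2 fold change above 0 (median 0.97). Of these 12 rose and 3 were DEGs, namely Sv2c, above, Syt2 and Rab3c. Syt2, a calcium sensor of fast release, stood at 253, 165, 132 and 161 CPM in +MSC-4w and 71, 38.5, 46.6 and 43.7 CPM in +PBS-4w (log2 fold change 1.83, SE 0.343, edgeR adjusted p = 0.00669). Rab3c, a vesicle GTPase, stood at 20.7, 15, 13.7 and 18.9 CPM and 3.24, 4.37, 7.87 and 9.04 CPM (log2 fold change 1.48, edgeR adjusted p = 0.00771). Unc13a, which primes vesicles, stood at 49.8 to 67.5 CPM against 21.3 to 39.6 CPM (log2 fold change 0.84, edgeR adjusted p = 0.00498). Without +PBS-4w replicate 1, 15 of the 26 were DEGs and 24 rose, against 2.69% and 9.63% of all genes.

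The study asked in particular about inhibitory receptors. Of the 20 GABA receptor subunit genes tested, 18 had a log2 fold change above 0 (median 0.79, and 0.68 without +PBS-4w replicate 1). With all libraries 2 rose, Gabbr2 among them, and in 6 the groups did not overlap. Over all genes tested 3.07% rose and 6.08% were separated in this direction. Without +PBS-4w replicate 1, 9 of the 20 rose and 4 were DEGs, against 9.63% and 2.69% of all genes. Gabbr2, of the metabotropic GABA-B receptor, stood at 84.9, 52.3, 43.5 and 68 CPM in +MSC-4w and 33.8, 17.3, 22.2 and 26.2 CPM in +PBS-4w and was the DEG of the list (log2 fold change 1.32, SE 0.252, edgeR adjusted p = 0.00715). The groups did not overlap, and without +PBS-4w replicate 1, the highest of its group, the log2 fold change was 1.47 (adjusted p = 0.00267).

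For some GABA-A subunits the call depended on +PBS-4w replicate 1. Gabra5 stood at 29.6, 22.1, 18.6 and 25.5 CPM in +MSC-4w, at 24.1 CPM in +PBS-4w replicate 1 and at 4.02, 6.26 and 6.42 CPM in replicates 2 to 4, which gave a log2 fold change of 1.23 (edgeR adjusted p = 0.122) with all libraries and 2.08 (adjusted p = 0.00342) without replicate 1. In this gene replicates 2 to 4 of +PBS-4w were lower than every +MSC-4w library, and replicate 1 was within the +MSC-4w range. Gabra3 went from 1.14 (adjusted p = 0.0528) to 1.42 (adjusted p = 0.00865), with replicate 1 at 14.3 CPM against 4.94, 7.65 and 9.59 CPM. Gabrb2 behaved otherwise, since replicate 1 was the lowest, at 0.0745 CPM against 2.58, 2.15 and 1.24 CPM, and its log2 fold change was 1.56 (adjusted p = 0.0758) with and 1.13 (adjusted p = 0.0291) without that library.

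Glycine receptors carry much of the inhibition in the cord. All 6 glycine receptor genes had a log2 fold change above 0 (median 0.91). Glra1, the adult alpha subunit, stood at 72, 61.2, 66.2 and 63.1 CPM in +MSC-4w and 11.3, 16.5, 23.8 and 19.3 CPM in +PBS-4w and was the DEG of the list (log2 fold change 1.89, SE 0.326, edgeR adjusted p = 0.00446). The groups did not overlap, and Intact cord held 143 ± 24.7 CPM (SD, n = 4). Glra2, the immature alpha subunit, rose by 1.20 (edgeR adjusted p = 0.0416). The beta subunit Glrb had 0.63 (edgeR adjusted p = 0.144) and the scaffold gephyrin, Gphn, 0.36 (adjusted p = 0.159). With replicate 1 of +PBS-4w left out both of the latter rose, by 0.97 (adjusted p = 0.00732) and 0.48 (adjusted p = 0.0259). In that fit 4 of the 6 rose in all, against 9.63% of all genes.

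Of the 10 genes of cation-chloride cotransport 6 had a log2 fold change above 0 (median 0.18), against -0.04 over all genes. Slc12a5, the gene of KCC2, which lowers chloride in mature neurons, stood at 293, 161, 140.4 and 197 CPM in +MSC-4w and 123, 49.4, 72.2 and 69.7 CPM in +PBS-4w. It rose by 1.33 (SE 0.354, edgeR adjusted p = 0.0365) without overlap, and +PBS-4w replicate 1 was again the highest of its group. Slc12a2, the gene of NKCC1, which raises chloride, overlapped between the groups, at 387, 317, 383 and 427 CPM and 322, 429.7, 385 and 381 CPM, with a log2 fold change of -0.00254 (SE 0.126, edgeR adjusted p = 0.993). The kinase Wnk2, which acts on these carriers, rose by 0.70 (adjusted p = 0.0374). Wnk3 had 1.16 (adjusted p = 0.0906) and Slc12a4, or KCC1, -0.48 (adjusted p = 0.0933). In the list 2 genes rose and 0 fell, against 3.07% and 0.928% of all genes. Without +PBS-4w replicate 1 the counts were 4 and 2, against 9.63% and 7.46% of all genes. Slc12a3, of the same gene family, was not in the list and was among the 89 higher DEGs.

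Bdnf, the growth factor whose receptor is Ntrk2, was low, and its log2 fold change was 0.56 without +MSC-4w replicate 1. It stood at 7, 2.99, 2.65 and 2.45 CPM in +MSC-4w and 2.61, 1.34, 2.24 and 1.15 CPM in +PBS-4w, where replicate 1 of +MSC-4w lay far above the others and the groups overlapped (log2 fold change 1.04, SE 0.392, edgeR adjusted p = 0.122). Ntrk2 stood at 700.4 to 821 CPM and 482 to 864 CPM (log2 fold change 0.24, adjusted p = 0.503). Of the 11 neurotrophin genes tested 0 rose and 0 fell, against 1 and 1 without +PBS-4w replicate 1.

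All 18 ionotropic glutamate receptor genes tested had a log2 fold change above 0 (median 0.77), and 3 NMDA receptor subunits rose. Grin2a stood at 15.8, 7.8, 8.34 and 9.51 CPM in +MSC-4w and 0.484, 2.47, 3.85 and 4.22 CPM in +PBS-4w (log2 fold change 1.92, SE 0.51, edgeR adjusted p = 0.0366). Grin2b rose by 1.27 (adjusted p = 0.0199) and Grin2d by 0.77 (adjusted p = 0.0127). The AMPA receptor subunit Gria1 had 0.78 (adjusted p = 0.0588), with the groups just apart at 17.5 to 29.6 CPM and 10.8 to 17.4 CPM. When +PBS-4w replicate 1 was left out, 9 of the 18 rose and 4 were DEGs, against 9.63% and 2.69% of all genes.

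Genes that mark the transmitter of a neuron were also higher, but rarely called. Of the 10 motor neuron genes 9 had a log2 fold change above 0 (median 0.85) and 1 rose. Slc5a7, the choline transporter of cholinergic terminals, stood at 92.4, 68.3, 121 and 84.5 CPM in +MSC-4w and 42, 33, 36.8 and 40.7 CPM in +PBS-4w (log2 fold change 1.26, SE 0.347, edgeR adjusted p = 0.0426). Chat, which makes acetylcholine, stood at 37.7, 42.7, 44.8 and 37.4 CPM and 20.4, 14.7, 14.6 and 18.2 CPM without overlap and did not pass the threshold (log2 fold change 1.26, adjusted p = 0.057). All 14 transmitter genes of spinal interneurons had a log2 fold change above 0 (median 0.73) and 0 rose (edgeR, adjusted p under 0.05). Slc6a5, the glycine transporter of inhibitory neurons, had 1.54 (adjusted p = 0.057), Gad2, which makes GABA, 1.31 (adjusted p = 0.0608), Gad1 0.92 (adjusted p = 0.174) and Slc17a6, the vesicular glutamate transporter of the cord, 1.03 (adjusted p = 0.109). Of these 14, 9 rose without +PBS-4w replicate 1, and of the motor neuron genes 4 rose, against 9.63% of all genes.

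In the common markers of neurons +PBS-4w replicate 1 lay apart from the rest of its group. All 15 pan-neuronal genes had a log2 fold change above 0 (median 1.06) and 3 rose, Map2, Rbfox3 and Syn1. In 12 of the 15, +PBS-4w replicate 1 was at or above the lowest +MSC-4w library, against 67.7% of all genes tested. In all 15 the other 3 +PBS-4w libraries were below every +MSC-4w library, against 15.5% of all genes tested. The summed level of the list was 8256 to 10082 CPM in +MSC-4w, 8784 CPM in +PBS-4w replicate 1 and 2446 to 3372 CPM in replicates 2 to 4. Without replicate 1 the median was 1.70, 13 of the 15 rose and 10 were DEGs, where 9.63% of all genes rose and 2.69% were higher DEGs.

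Map2, of dendrites, stood at 896, 649, 638 and 757 CPM in +MSC-4w and 387, 294, 334 and 399.7 CPM in +PBS-4w (log2 fold change 1.06, edgeR adjusted p = 0.0124). Rbfox3, the gene of the nuclear marker NeuN, stood at 48.3, 25.1, 26.3 and 36.6 CPM and 18.9, 6.24, 11.9 and 12.6 CPM (log2 fold change 1.46, adjusted p = 0.0167). In these 2 genes the groups did not overlap. Syn1, synapsin of vesicles, stood at 122 to 191 CPM in +MSC-4w and at 122 CPM in +PBS-4w replicate 1 (log2 fold change 1.08, adjusted p = 0.047), and Ina, the neurofilament internexin, had 1.23 (adjusted p = 0.0559).

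The neurofilament genes, which are not among the genes fixed for naming and were chosen after their values were seen, showed the pattern in full. Nefl stood at 1921, 1627, 2304 and 1879 CPM in +MSC-4w, 1745 CPM in +PBS-4w replicate 1 and 505, 507 and 664 CPM in replicates 2 to 4. Its log2 fold change was 1.18 (edgeR adjusted p = 0.121) with all libraries and 1.76 (adjusted p = 0.00963) without replicate 1. Nefm stood at 1968 CPM in replicate 1 and at 459, 495 and 723 CPM in the other +PBS-4w libraries, against 1753 to 2773 CPM in +MSC-4w. Nefh, Snap25, of vesicle fusion, and Uchl1, a neuronal ubiquitin hydrolase, likewise stood at 1652, 739 and 878 CPM in replicate 1, within or above the +MSC-4w ranges of 1312 to 1945, 421 to 843 and 533 to 750.0 CPM.

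This split among neuronal genes moved with gene length. Of the genes in the 10 neuronal lists with at least 5 CPM in Intact, 15 belonged to the shortest class, and their median log2 ratio of +PBS-4w replicate 1 to the mean of replicates 2 to 4 was 1.69. In the 68 genes of middle length it was 0.76, and in the 61 genes of the longest class 0.19. The 89 DEGs had a median length of 3008 bases, against 2156 over all genes tested. With the trend of each library with gene length removed (a setting chosen after seeing the data), 73 genes were higher DEGs, of which 64 were among the 89.

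**Figure D3:**
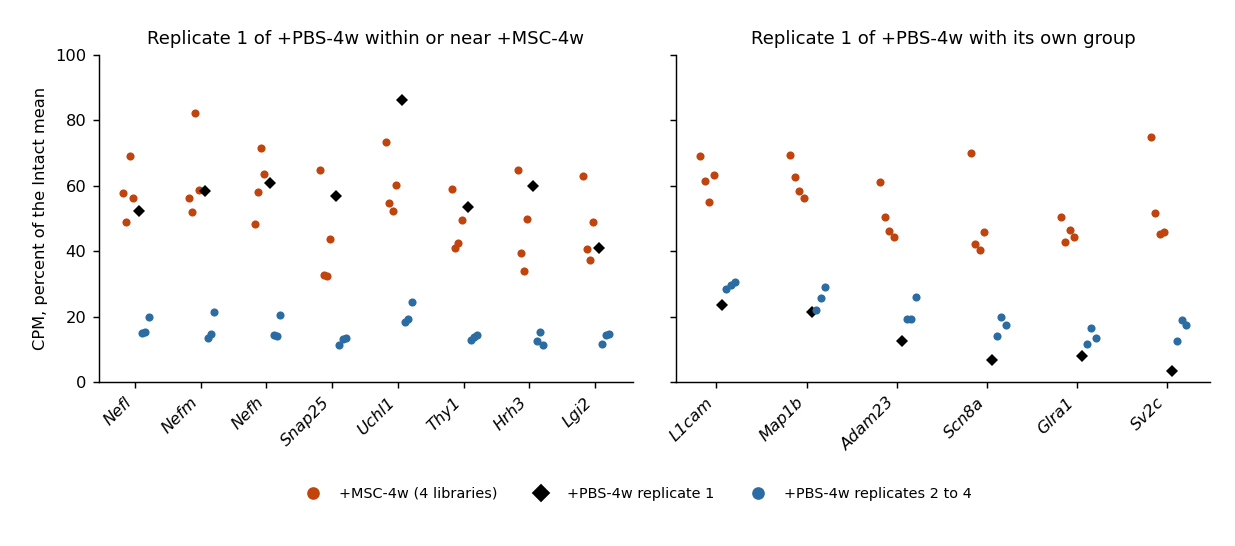
CPM of 14 neuronal genes as a percent of the Intact mean, with 1 point for each library, +MSC-4w in orange, +PBS-4w replicates 2 to 4 in blue and +PBS-4w replicate 1 as black diamonds, the genes having been chosen after their values were seen. In the left panel the diamond lies among or near the +MSC-4w points, as for Nefl and Snap25, and in the right panel it lies with the other +PBS-4w libraries or below them, as for L1cam and Scn8a.

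Among the genes of axon adhesion and guidance, 17 of 23 had a log2 fold change above 0 (median 0.58), 7 rose and 0 fell. Besides L1cam these included Cntnap1, the Caspr protein of axons beside the node, with 246, 187, 163 and 190.3 CPM in +MSC-4w and 142, 90.5, 96.8 and 94.6 CPM in +PBS-4w (log2 fold change 0.89, edgeR adjusted p = 0.0142). Slit1, a guidance ligand, rose by 1.18 (adjusted p = 0.0206). After leaving out +PBS-4w replicate 1, the median was 0.29. In that fit 7 rose and 5 were DEGs, against 9.63% and 2.69% of all genes. In the list of chondroitin sulfate proteoglycans and their partners 1 of 12 rose, Acan, the aggrecan of the nets around neurons. Acan stood at 10.3, 11.5, 13.4 and 14.6 CPM in +MSC-4w and 8.72, 4.27, 2.95 and 5.87 CPM in +PBS-4w (log2 fold change 1.19, SE 0.258, edgeR adjusted p = 0.0131), below the Intact level of 31.7 ± 0.565 CPM (SD, n = 4). Hapln4, a link protein of the same nets, had 1.17 (adjusted p = 0.131) and, without +PBS-4w replicate 1, 1.89 (adjusted p = 0.0062), and 3 of the 12 rose in that fit.

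The genes of macroglia moved less. Of 12 myelin genes 10 had a log2 fold change above 0 (median 0.25) and 0 rose. Mobp, of the compact myelin sheath, came nearest to the threshold, with 0.75 (adjusted p = 0.0993). Of the 8 precursor genes 4 were above 0 (median 0.04), and 0 rose or fell. Without +PBS-4w replicate 1, 1 of the 8 fell and was a lower DEG, Pdgfra, whose values are given below. Of the 12 genes of astrocyte homeostasis 9 were above 0 (median 0.18) and 1 rose, the glutamate transporter Slc1a3, at 356, 313, 255 and 289 CPM in +MSC-4w and 167, 190.3, 225 and 197 CPM in +PBS-4w (log2 fold change 0.64, SE 0.145, edgeR adjusted p = 0.0174). The other glutamate transporter, Slc1a2, stood at 125 to 154 CPM against 21.4, 73.8, 99.2 and 99.1 CPM (0.98, adjusted p = 0.104) and the potassium channel Kcnj10 at 76.3 to 114 CPM against 25.9, 60.1, 68 and 71.8 CPM (0.75, adjusted p = 0.0964). In these 3 genes +PBS-4w replicate 1 was the lowest library.

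Among 11 genes of reactive astrocytes 9 had a log2 fold change below 0 (median -0.36). Nes, the intermediate filament nestin, fell by 0.70 on the log2 scale (SE 0.185, edgeR adjusted p = 0.0351), with 13.3, 17.1, 21.4 and 15.8 CPM in +MSC-4w and 36.7, 26.8, 19.999 and 26.7 CPM in +PBS-4w and an overlap of 1 library of each group. Vim, vimentin, stood at 1913, 2012, 1700.1 and 1649 CPM and 2274, 3279, 3427 and 3244 CPM without overlap (-0.75, adjusted p = 0.141), and S100a6 had -1.10 (adjusted p = 0.24). All 8 ependymal cilia genes were below 0 (median -0.52) and 0 fell, while 1 fell without +PBS-4w replicate 1.

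Several lists of immune genes lay below 0 with few calls when all libraries were used, and the direction of some turned without +PBS-4w replicate 1. All 15 genes of phagocytic macrophages and microglia had a log2 fold change below 0 (median -0.52), where 45.5% of all genes were above 0, and 1 fell. This was Ctsl, the lysosomal protease cathepsin L, at 338, 381, 339 and 420.3 CPM in +MSC-4w and 461, 525, 603 and 540.0 CPM in +PBS-4w (log2 fold change -0.53, SE 0.124, edgeR adjusted p = 0.0202). Cd63, of lysosome membranes, stood at 421, 470.3, 485 and 454 CPM and 774, 537, 648 and 612 CPM without overlap (-0.49, adjusted p = 0.0656), and Apoe, the lipid carrier, had -0.57 (adjusted p = 0.11). Of the 15, 2 were above 0 without +PBS-4w replicate 1. The interferon-stimulated genes were below 0 in all 11 (median -0.53) and the complement genes in 13 of 14 (median -0.37), and in neither list did a gene fall. Of the homeostatic microglia genes 5 of 9 were above 0, of the MHC class II genes 4 of 8, of the T and B lymphocyte genes 3 of 10 and of the cytokine and inflammatory genes 3 of 13, with 0 calls at an adjusted p under 0.05 in the 4 lists. By contrast, without +PBS-4w replicate 1 5 of the complement genes and 3 of the homeostatic microglia genes were above 0. In that fit the median of the MHC class II genes went from -0.10 to 0.50, with 6 above 0, and that of the T and B lymphocyte genes from -0.26 to 0.08, with 6 above 0. Of the cytokine and inflammatory genes 2 were above 0 and 1 fell in it.

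Collagen and other scar matrix genes were lower in all 17 members tested (median -1.08), but 0 of them fell at an adjusted p under 0.05 with all libraries. In every one of the 17, +PBS-4w replicate 1 was the lowest library of its group, as in 7146 of the 17990 genes tested. Col6a1, of microfibrils, stood at 81.2, 234, 152 and 141 CPM in +MSC-4w, 109 CPM in +PBS-4w replicate 1 and 445, 442 and 385 CPM in replicates 2 to 4 (log2 fold change -1.18, edgeR adjusted p = 0.118). Without replicate 1 its log2 fold change was -1.50 (adjusted p = 0.0177), that of its partner Col6a2 -1.35 (adjusted p = 0.024), that of Col5a1 -1.51 (adjusted p = 0.00888) and that of Pdgfrb, the receptor of perivascular fibroblasts, -1.04 (adjusted p = 0.013). In that fit 6 of the 17 fell and 1, Col5a1, was a lower DEG, against 7.46% and 0.256% of all genes. Pdgfra, which marks oligodendrocyte precursors and fibroblasts, went from -0.72 (adjusted p = 0.167) to -1.03 (adjusted p = 0.00865), a lower DEG in that fit.

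Markers of the meninges, which cover the cord, moved with the scar matrix. All 8 meningeal genes were below 0 (median -1.21) and 0 fell. Without +PBS-4w replicate 1 the median was -1.50 and 3 fell, against 7.46% of all genes. Their summed level was 3409.7 to 6050.3 CPM in +MSC-4w, 5403 CPM in +PBS-4w replicate 1 and 9971 to 14209 CPM in replicates 2 to 4, and the share of meninges in the tissue pieces was not tested. Ptgds, a prostaglandin synthase of the meninges, stood at 2938, 4592, 3399 and 4144 CPM in +MSC-4w and 4547, 11418, 10515 and 8394 CPM in +PBS-4w (-1.21, adjusted p = 0.138). The transcription factor Foxc1 had -1.29 (adjusted p = 0.121) and Crabp2, which binds retinoic acid, -1.39 (adjusted p = 0.121). Of the Schwann cell genes 8 of 10 were below 0 (median -0.67), of the endothelial genes 7 of 9 and of the skeletal muscle genes 7 of 7, without a call. In the fit lacking +PBS-4w replicate 1, 1 Schwann cell gene and 1 endothelial gene fell.

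**Figure D4:**
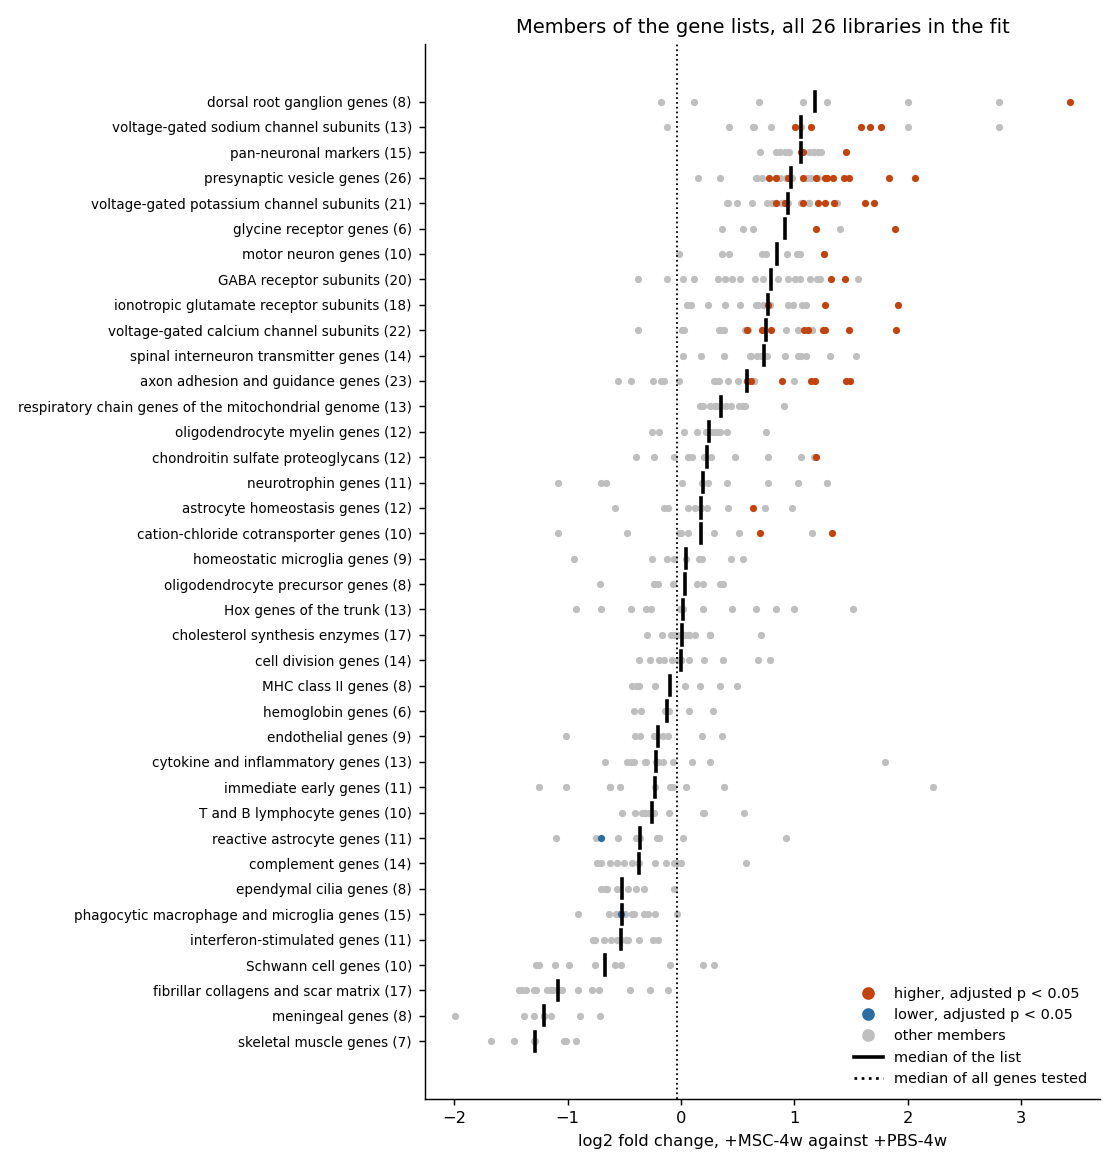
Log2 fold change of +MSC-4w against +PBS-4w for each tested member of the gene lists (number tested in brackets), with all 26 libraries in the fit. Orange points rose and blue points fell at an adjusted p under 0.05, grey points did neither, black bars are list medians and the dotted line is the median of all genes, -0.04. The neuronal lists lie above 0 and hold most of the orange points, while the scar matrix and meningeal lists lie below 0 with grey points alone.

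With all libraries, the genes lower in edgeR at an adjusted p under 0.05 were fewer than the higher ones and changed less. Their number, 167, was 612 in DESeq2 and 1340 without +PBS-4w replicate 1, where 46 were DEGs. Tob1, a brake on cell division, had the smallest adjusted p, at 28.3, 30.8, 27.4 and 28.4 CPM in +MSC-4w and 38.5, 50.9, 42.1 and 40.6 CPM in +PBS-4w (log2 fold change -0.58, SE 0.104, edgeR adjusted p = 0.00498). Rras, a small GTPase, stood at 23.6, 27.7, 22.4 and 23.2 CPM and 37.3, 40.8, 36.5 and 37.1 CPM (log2 fold change -0.65, edgeR adjusted p = 0.00586). Neither gene overlapped between the groups, and 4.47% of the genes tested were lower in this way. Spint2, an inhibitor of serine proteases, fell by 0.78 on the log2 scale (adjusted p = 0.00771), Vamp8, of endosome fusion, by 0.69 (adjusted p = 0.00771) and Nkain4, a partner of the sodium pump, by 0.64 (adjusted p = 0.00874).

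The DEGs were most numerous with +PBS-4w replicate 1 left out. In that fit of 25 libraries, 484 genes were higher (2.69% of 17964 tested) and 46 lower (0.256%), 1730 rose (9.63%) and 1340 fell (7.46%), and 82 of the 89 DEGs were among the 484. These 82 were 92.1% of the 89 and 16.9% of the 484. In 387 of the 402 genes that were DEGs only there, +PBS-4w replicate 1 was the highest library of its group, which choosing genes by leaving it out favours. Without replicate 2 of +PBS-4w as well, edgeR called 0 DEGs (2358 higher and 1862 lower genes at an unadjusted p under 0.05), while DESeq2 called 430 higher and 24 lower.

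Besides L1cam, Mest and Rasgrp1, the leading genes of that fit included several of neurons. Thy1, a surface glycoprotein of neurons, stood at 597, 413, 429 and 499 CPM in +MSC-4w, 542 CPM in +PBS-4w replicate 1 and 130.3, 139 and 147 CPM in replicates 2 to 4. Its log2 fold change was 1.02 (edgeR adjusted p = 0.111) with and 1.77 (adjusted p = 0.00175) without that library. Lgi2, a secreted protein of synapses, stood at 161, 104, 94.9 and 124 CPM, 104 CPM and 29.8, 36.6 and 37.6 CPM and went from 1.21 (adjusted p = 0.0359) to 1.77 (adjusted p = 0.00175). Hrh3, a histamine receptor that limits release, went from 0.92 (adjusted p = 0.167) to 1.82 (adjusted p = 0.00175), with replicate 1 at 18.8 CPM against 3.92, 4.83 and 3.53 CPM. Limk1, a kinase of actin turnover, went from 0.77 to 1.14, Necab3, a calcium-binding protein, from 0.54 to 1.11 and Pgm2l1, which makes glucose bisphosphate in brain, from 0.93 to 1.21. In each of these 6 genes replicates 2 to 4 lay below all 4 +MSC-4w libraries, which naming them from that fit favours. The same held in 99.8% of the 402 genes that were DEGs only there, and in 15.5% of all genes tested.

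The 46 lower DEGs of the same fit had the opposite form, with replicate 1 the lowest of +PBS-4w in 45 of them, which the same choice favours. Tp53i11 stood at 43.2, 53.9, 49.4 and 53.2 CPM in +MSC-4w, 45.6 CPM in +PBS-4w replicate 1 and 126, 98.6 and 103 CPM in replicates 2 to 4 (without replicate 1, log2 fold change -1.15, edgeR adjusted p = 0.00185). Dock6, an activator of Rac and Cdc42, stood at 30.8, 57.4, 46.6 and 52.7 CPM, 34.1 CPM and 137, 105 and 108 CPM (-1.34, adjusted p = 0.00189). Ltbp4, which holds latent TGF-beta in the matrix, stood at 83.3 to 125 CPM, 71.5 CPM and 269.9, 176 and 197 CPM (-1.21, adjusted p = 0.00362). Ildr2, Ankrd33b, the mitochondrial carrier Slc25a35 and the matrix protein Adamtsl5 had log2 fold changes of -1.27, -1.38, -1.19 and -1.32. Rnase11, at 0.149 to 1.21 CPM in +PBS-4w and 0 to 0.0874 CPM in +MSC-4w, rested on few reads.

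The difference at 4 wpt was set against the same difference at 1 and 2 wpt, each from its own libraries. All 89 DEGs had a log2 fold change above 0 at 1 and at 2 wpt as well, with medians of 0.93 and 0.87 against 1.42 at 4 wpt, the week on which they were chosen. This was not particular to the DEGs, since every neuronal list had a median above 0 at both weeks. The medians were 1.08 and 0.83 for the pan-neuronal genes and 0.99 and 0.85 for the presynaptic vesicle genes. L1cam had 0.61 and 0.55 at 1 and 2 wpt, Map1b 0.94 and 0.75, Glra1 1.48 and 1.05, and Gabbr2 0.82 and 1.04. Tested directly, the difference between the weeks passed an adjusted p of 0.05 in 0 genes against 1 wpt (smallest adjusted p = 0.491, 335 higher and 367 lower genes at an unadjusted p under 0.05) and in 0 against 2 wpt (234 and 179). DESeq2 called 4 and 3 genes. Among the 89 DEGs 16 and 12 had an unadjusted p under 0.05 for these differences. Of the genes tested 1.86% and 1.30% were higher in this way, and 2.04% and 0.995% lower. The 89 were chosen on the week 4 difference, which is part of both comparisons and favours such counts, so no change with time is read from them. Of the genes with a symbol, the smallest edgeR p-values against 1 wpt were those of RT1-CE3, an MHC class I gene whose near copies can share reads (change in log2 fold change -5.12, unadjusted p = 2.73e-05), Tob1 (-0.74, unadjusted p = 0.000122) and Ttyh3 (0.59, unadjusted p = 0.000157). Against 2 wpt they were those of the neuropeptide genes Crh (3.63, unadjusted p = 0.000137) and Vip (2.46, unadjusted p = 0.000354).

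Finally each library was given a position between sub-SCI (a mean of 0) and Intact (a mean of 1), using the 6132 genes called DEGs between these groups, whose means hold no library of week 4. The +MSC-4w libraries stood at 0.686, 0.456, 0.489 and 0.567 and the +PBS-4w libraries at 0.415, 0.298, 0.307 and 0.329. Every +MSC-4w library was nearer to Intact than every +PBS-4w library, although the lowest of +MSC-4w and +PBS-4w replicate 1 were close. The means were 0.549 ± 0.102 and 0.337 ± 0.0534 (SD, n = 4 each), a difference of 0.212 (two-sided exact permutation test, p = 0.0286, the smallest that 4 against 4 allows). Without +PBS-4w replicate 1 the difference was 0.238 (exact p = 0.0286), and without +MSC-4w replicate 1, the library nearest to Intact, it was 0.167 (exact p = 0.0571). Without +PBS-4w replicate 2, 3 or 4 it was 0.199, 0.202 and 0.209 (exact p = 0.0571 each).

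**Figure D5:**
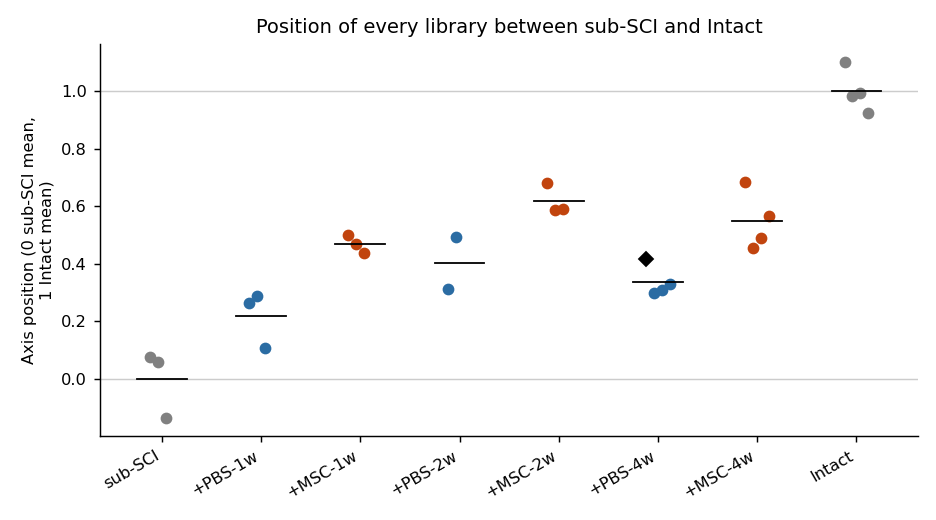
Position of each of the 26 libraries between sub-SCI (mean 0) and Intact (mean 1) in 6132 genes, with 1 point for each library and a bar for the group mean, +MSC groups in orange, +PBS groups in blue, +PBS-4w replicate 1 as a black diamond, and the groups that define the line in grey. The 4 +MSC-4w libraries lie between 0.456 and 0.686 and the 4 +PBS-4w libraries between 0.298 and 0.415.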

How the data were processed

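Per the labels, RNA was extracted from 26 spinal cord pieces. The authors sequenced poly(A) libraries, trimmed the reads with Trim Galore 0.5.0, removed reads that HISAT2 2.1.0 mapped to GRCh38, aligned the rest to Rnor6, filtered them with SAMtools 1.9 and counted them with featureCounts 1.6.4. Removing human reads can also take rat reads of highly conserved genes. The authors deposited whole-number read counts for 32883 Ensembl genes, without normalization. Each library's own file was checked to equal the joint table. The strand setting and annotation release are not given in the sources used here, so overlapping genes and close paralogs are uncertain, and no Rnor6 coordinates are printed.

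The counts were analysed in R 4.3.3. The 17990 genes kept by filterByExpr were scaled by TMM and fitted in 1 model of the 8 groups without covariates by edgeR 4.0.16 (glmQLFit, glmQLFTest), with Benjamini-Hochberg adjustment over all genes tested. The standard error is the log2 fold change divided by the square root of F. Log2 CPM used a prior count of 2. The thresholds of a DEG follow the study's methods, which name DESeq2 (here 1.42.0, an alternative). The tests were tried on simulated counts. Members and lists were chosen with earlier results of these data known. Named were the 15 higher DEGs and 5 lower genes with the smallest adjusted p, the 10 higher and 10 lower DEGs without +PBS-4w replicate 1 (of which Gnas, a symbol of 2 genes, Catsperg and RGD1310587 get no values), the 5 DEGs with the largest fold change, 11 genes of GABA signalling and BDNF, up to 4 genes of each list, and 3 genes each way for each difference between weeks. Some genes that these rules name are not reported here. Promoters were matched by symbol to a RefSeq table. Alternatives were other size factors, filters, DESeq2, the 8 libraries alone, terms for the replicate number or replicate 1, each library left out, and, added after the data were seen, removal of the trend with gene length and of +PBS-4w replicate 2 with replicate 1.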

Additional observations from a re-analysis of the deposited data

Results flagged for a closer look

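In each group of 4 libraries, the gap between the highest or lowest library and its nearest neighbour was divided by the range of the group, and a library stood apart where this ratio passed the critical value of Dixon's test at the 95% level for 4 values. Of 228 groups tested 29 held such a library, and 20 of the 29 were due to +PBS-4w replicate 1. Chance gives about 1 in 20 groups where genes are not chosen by these values. Many of the genes here were named from the fit without that library or after their values were seen, and all share the same libraries, so the number is not set against chance.

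Among receptor, synapse and transmitter genes, the ratio of +PBS-4w replicate 1 was 0.881 for Gabra5, 0.945 for Glrb, 0.873 for Slc17a6, 0.915 for Hrh3, 0.842 for Syn1, 0.950 for Snap25 and 0.896 for Lgi2, each with replicate 1 the highest of its group. Among genes of the neuronal surface, cytoskeleton and metabolism it was 0.959 for Thy1, 0.959 for Ina, 0.872 for Nefl, 0.866 for Nefh, 0.910 for Uchl1, 0.877 for Cntnap1, 0.883 for Hapln4, 0.897 for Limk1, 0.846 for Necab3 and 0.837 for Pgm2l1, again with replicate 1 the highest. For Vim the ratio was 0.841, with replicate 1 the lowest at 2274 CPM against 3244 to 3427 CPM. The library stood apart in the shortest of 4 classes of gene length (0.875) and in the longest (0.874) as well.

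In +PBS-4w replicate 2 the ratio was 0.848 for Scn1a, at 30.02 CPM against 40.1 to 41.9 CPM. In +MSC-4w replicate 1 it was 0.881 for Bdnf, at 7.00 CPM against 2.45 to 2.99 CPM, 0.903 for Kcnh1, at 15.5 CPM against 9.25 to 9.85 CPM, 0.921 for Zdbf2, 0.844 for Dlk1 and 0.922 for the longest class of gene length, each gene being highest in that library. In +MSC-4w replicate 2 it was 0.976 for Ltbp4, at 124.8 CPM against 83.3 to 84.3 CPM, 0.870 for S100a6 and 0.872 for Pdgfra.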

How the results depend on the processing

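Over the alternatives, 1958 of 1968 combinations of a named gene and a setting kept their direction, while 184 lost and 117 gained an adjusted p under 0.05. The other 10 were of Slc12a2, whose log2 fold change lay near 0 (-0.00254) and was 0.00209 and 0.0120 in DESeq2 with 26 and 8 libraries, 0.00849 in edgeR with 8, 0.00219 with median-of-ratios factors, 0.0198 without a filter, 0.00481 with the replicate number as a block, 0.00271 with a term for replicate 1, and -0.101 to 0.0734 with 1 library left out (SE 0.126). The 89 higher DEGs became 295 in DESeq2 with 26 libraries, 232 in DESeq2 and 0 in edgeR with 8 libraries, and 3 to 484 with 1 library left out. The 0 lower DEGs became 13, 14 and 0 in the same fits, 2 without both replicate 1 libraries, and 0 to 46 with 1 library left out. At an adjusted p under 0.05, the 552 higher genes became 1041 in DESeq2 with 26 libraries, 93 in edgeR with 8, 1092 without both replicate 1 libraries, and 150 to 1730 with 1 left out. The 167 lower genes became 612 and 261 in DESeq2 with 26 and 8 libraries, 2 in edgeR with 8, 62 without a filter, 285 with at least 10 counts in every library, 393 with a term for replicate 1, 457 without both replicate 1 libraries, 108 with the length trend removed, and 10 to 1340 with 1 left out. Without +PBS-4w replicate 1, the 484 higher and 46 lower DEGs became 772 and 197 in DESeq2, and 0 and 0 in edgeR without +PBS-4w replicate 2 as well. Differences between weeks were called in 4 and 3 genes by DESeq2, and in 0 to 1 with 1 library left out. The difference in position between sub-SCI and Intact was 0.192 without both replicate 1 libraries (exact permutation p = 0.1, the smallest that the remaining libraries allow). It was 0.167 to 0.243 with 1 left out. The causes of these shifts were not tested.

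With the replicate number as a block, 332 genes were lower at an adjusted p under 0.05 and 86 were higher DEGs, and the position differed by 0.212 (exact permutation p = 0.125, the smallest that 4 pairs allow). Libraries of the same number correlated at 0.17, 0.23, 0.02 and 0.19 in their deviations from the group means, replicate 3 of +MSC-4w more with replicate 2 of +PBS-4w (0.19), so not every pair passed the 0.1 required for pairing, and the labels do not say what the numbers mark. As a hint from the data alone, 3 of the 4 +MSC-4w libraries correlated best with their own number, and all 8 replicate 1 libraries of the series had a negative rank correlation with gene length (-0.43 to -0.08). Levels under 1 CPM rest on few reads.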

Other observations

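Imprinted genes, which are expressed from 1 parental copy, were gathered into a list after Mest had been seen among the leading DEGs, so their count is a description. Of 26 tested, 18 had a log2 fold change above 0 with a median of 0.56. At an adjusted p under 0.05 in edgeR 8 rose and 1 fell, where 3.07% and 0.928% of all genes did. Without +PBS-4w replicate 1, 11 rose and 3 fell, where 9.63% and 7.46% of all genes did. The DEGs were Mest, Zdbf2 and Mir770, which is annotated as a microRNA gene of 94 bases. Which transcript the reads of Mir770 came from was not tested. Zdbf2 stood at 19.2, 11, 10.3 and 10.4 CPM in +MSC-4w and 5.1, 3.07, 5.64 and 4.77 CPM in +PBS-4w (log2 fold change 1.45, edgeR adjusted p = 0.00586). Peg3, a zinc finger gene, rose by 0.92 (adjusted p = 0.0136), its neighbour Usp29 by 1.15 (adjusted p = 0.0268) and Dlk1, a Notch-like membrane protein, by 1.71 (adjusted p = 0.0293). Cdkn1c, an inhibitor of the cell cycle, stood at 34.7, 41.5, 33.2 and 37.3 CPM and 46.7, 77.2, 61.7 and 62.7 CPM (log2 fold change -0.76, adjusted p = 0.0368).

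All 13 respiratory chain genes of the mitochondrial genome had a log2 fold change above 0, with a median of 0.36 and 0 calls. Of them, 1 rose without +PBS-4w replicate 1. Of the 17 cholesterol synthesis enzymes 9 were above 0, of the 14 cell division genes 7, of the 11 immediate early genes 3 and of the 6 hemoglobin genes 2, with 0 calls at an adjusted p under 0.05. Without +PBS-4w replicate 1 the numbers above 0 were 13, 10, 2 and 6, and 2 cholesterol genes and 1 immediate early gene rose, while 3 immediate early genes fell. In that fit 9.63% of all genes rose and 7.46% fell.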
